A study of Mus musculus with 9 samples.

Results

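The vitamin A transport and oxidation genes described here are Rbp4, Ttr, Stra6, Crabp1, Crabp2, Aldh1a1, Aldh1a2, Aldh1a3 and Rdh10, 9 genes in all of the 55536 in the gene tables. They were taken by name and matched to their Ensembl identifiers in the GRCm38 annotation. They were read in 9 RNA-seq libraries from sorted pancreatic islet cells of C57B/L6 mice aged 12 weeks, with 3 libraries per subset. The delta-cell enriched subset was sorted as CD24high, the alpha-cell enriched subset as CD24low CD71-, and the beta-cell enriched subset as CD24low CD71+. CD24 is a surface glycoprotein and CD71 is the transferrin receptor. All islets were cultured overnight before dispersion, and the labels name no genotype, agent or treatment that differs between subsets. The gates enrich a cell type and do not isolate it, and the labels do not say how many mice were pooled or whether the libraries of a subset came from separate mice. The p-values therefore measure the spread between these libraries, which may be technical.

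Retinol, the alcohol form of vitamin A, travels in blood bound to retinol binding protein, which Rbp4 encodes, in a complex with transthyretin, which Ttr encodes. STRA6 is a membrane receptor through which retinol leaves this complex and enters cells. Inside cells retinol is oxidised to retinal by dehydrogenases such as RDH10, and retinal is oxidised irreversibly to retinoic acid by the ALDH1A enzymes. CRABP1 and CRABP2 bind retinoic acid in the cytosol, and retinoic acid acts through RAR and RXR nuclear receptors. In the pancreas this pathway is known for its part in the early outgrowth of the organ and in endocrine differentiation, and Aldh1a3 is known in mice as a gene that appears in beta cells under metabolic stress.

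Each subset carried its own hormone. Sst, which encodes somatostatin, lay between 14396 and 20737 scaled CPM in the delta libraries, at 18.9 to 73.4 in the alpha libraries and at 1.03 to 2.31 in the beta libraries. Scaled CPM are counts made comparable between libraries by total and by composition. Gcg, which encodes glucagon, stood at 1930 to 6003 scaled CPM in the delta libraries, 78112 to 96574 in the alpha libraries and 300.2 to 549.7 in the beta libraries. Ins2, which encodes insulin, had 65.3 to 390.1 scaled CPM in delta, 2027 to 2772 in alpha and 21226 to 28401 in beta. The 6 immune markers summed to 5.74 to 11.2 scaled CPM in delta, 5.79 to 6.21 in alpha and 5.78 to 9.24 in beta, with Ptprc and Cd3e at 0 and C1qa at 3.26 to 9.68 over all libraries. The 6 endothelial markers summed to 0.605 to 3.21 in delta, 0.342 to 0.756 in alpha and 0.128 to 0.660 in beta, with Tie1 and Plvap at 0. The 5 erythroid markers summed to 0.546 to 2.44 in delta, 0.911 to 1.89 in alpha and 0.514 to 0.770 in beta, with the 4 globin genes at 0. Library totals ran from 5663141 to 9529920 expected counts. Of the counts in beta replicate 2, 34.4% fell on a ribosomal RNA locus that held 3.15% to 5.37% in the other libraries, which lowers that library's TPM (transcript abundance per length, scaled to a common total). The 12 acinar markers summed to 3202 scaled CPM in delta replicate 3, against 312 and 210 in the other delta libraries, and to 609.5, 86.5 and 70.1 in the alpha libraries and 27.7 to 80.2 in beta. The 7 duct markers summed to 190 to 342 in delta, 603 to 795 in alpha and 363 to 414 in beta. The 5 Schwann markers summed to 82.4 to 99.4 in delta, 73.3 to 82.3 in alpha and 83.8 to 96.5 in beta.

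The promoter sequences of Rbp4 are shown because Rbp4 alone among the 9 genes was called in all 3 comparisons. The RefSeq table, on GRCm38.p6, was used for 5 of the 9 genes, with 10 windows in all; Crabp2, Aldh1a3 and Rdh10 were not matched. The 250 bases before each of the 2 start sites of Rbp4 are given on the minus strand of chromosome 19. They lie at chr19:38125322-38125571 for the upstream site and chr19:38124812-38125061 for the downstream one. The downstream stretch lies within the annotated span of the gene, 38116629 to 38125281. Capitals mark any match on either strand to the nuclear receptor motifs AGGTCA and AGTTCA, to the homeodomain core TAATTA or to the TATA box TATAAA. Direct repeats of AGGTCA spaced by 1, 2 or 5 bases and of AGTTCA spaced by 5 bases were searched as well.
Rbp4 upstream start: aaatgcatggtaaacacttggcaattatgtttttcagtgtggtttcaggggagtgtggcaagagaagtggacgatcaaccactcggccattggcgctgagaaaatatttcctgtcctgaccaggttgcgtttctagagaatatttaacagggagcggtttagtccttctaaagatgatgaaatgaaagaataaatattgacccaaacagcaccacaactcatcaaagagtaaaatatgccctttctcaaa
Rbp4 downstream start: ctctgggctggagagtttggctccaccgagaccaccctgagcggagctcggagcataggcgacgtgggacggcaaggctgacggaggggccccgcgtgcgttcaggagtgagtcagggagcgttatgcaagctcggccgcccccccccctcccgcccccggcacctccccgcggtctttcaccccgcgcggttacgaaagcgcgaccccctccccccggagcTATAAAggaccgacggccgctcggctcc
The windows from 250 bases before to 50 after the start differed in base composition. GC content was 40.7% at the upstream and 72.0% at the downstream start, and 11.4% and 93.1% of the 32851 windows in the table had a lower GC content. The downstream window held TATAAA once, 28 bases before the start site, a sequence found in 13.6% of all windows. Neither window held the other motifs or a repeat. AGGTCA was found in 16.3% of all windows, AGTTCA in 14.0% and TAATTA in 5.29%. The absence of a match says only that these letters are not in these windows.

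Of the 9 genes, 7 had at least 1 count and 4 passed the filter on low counts, namely Rbp4, Ttr, Rdh10 and Aldh1a3. In delta against beta, 2 of the 4 were called at an adjusted p under 0.05, both higher in delta, beside 30.6% of all 15896 tested genes. These were Rbp4 and Aldh1a3, and Aldh1a3 had only 1 to 5 counts in the beta libraries. In delta against alpha 2 were called, 1 higher and 1 lower in delta, beside 24.3% of all tested genes. In alpha against beta 2 were called, both higher in alpha, beside 26.6%. By direction, 15.3% of all tested genes were higher in delta than in beta, 13.3% higher and 11.0% lower in delta than in alpha, and 11.9% higher in alpha than in beta. The median log2 fold change of the 4 genes was 1.84, 0.71 and 3.29 in the 3 comparisons, beside 0.02, 0.01 and 0.02 over all tested genes. Every adjusted p is from edgeR's quasi-likelihood test with Benjamini-Hochberg adjustment over all tested genes, and every fold change is the first subset over the second.

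Rbp4 formed 3 separate levels. Rbp4 (ENSMUSG00000024990, chromosome 19, 38116629 to 38125281, minus strand) had 600.2, 646 and 497 scaled CPM in the delta libraries, 95.1, 88.4 and 70.0 in the alpha libraries, and 2.70, 1.54 and 1.65 in the beta libraries. The delta libraries were all above the alpha libraries and the alpha libraries all above the beta libraries, with no overlap. Rbp4 was 285-fold higher in delta than in beta (log2 fold change 8.16, SE 0.20, 95% interval 7.73 to 8.58, adjusted p = 6.62e-14). It was 6.87-fold higher in delta than in alpha (log2 fold change 2.78, SE 0.14, 95% interval 2.49 to 3.07, adjusted p = 3.15e-10). It was 41.5-fold higher in alpha than in beta (log2 fold change 5.38, SE 0.20, 95% interval 4.96 to 5.80, adjusted p = 7.59e-12). Each of the 3 differences exceeds the spread between libraries, and the order of levels was delta, alpha, beta with each neighbouring pair apart beyond its spread. The beta levels rested on 21, 9 and 10 counts. In bulk libraries fewer cells of a type and less RNA per cell cannot be told apart.

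Per length, Rbp4 was among the abundant transcripts of the delta-cell enriched subset. It averaged 355 ± 66.8 TPM in delta, 61.0 ± 1.35 in alpha and 1.25 ± 0.348 in beta (SD, n = 3 each). In delta this was the 140th highest mean TPM of the 15896 tested genes, above 99.1% of them. In alpha it ranked 508th, and in beta 11699th. The alpha-cell enriched subset averaged 14.5% of the delta level in scaled CPM, and the beta-cell enriched subset 0.338%.

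**Figure D1:**
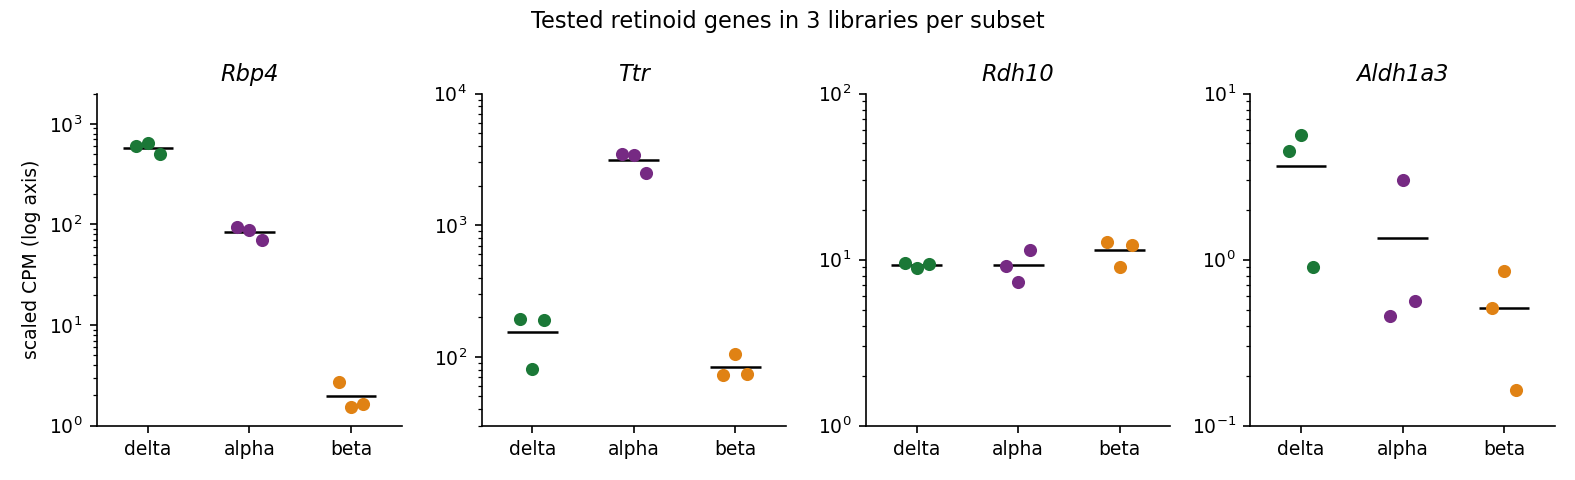
Scaled CPM (log axis) of the 4 tested genes in each library, with 3 points per subset and a bar at the mean; the axes differ between panels. Rbp4 falls into 3 separate levels from delta (497 to 646) to alpha (70.0 to 95.1) to beta (1.54 to 2.70), Ttr stands apart in alpha, Rdh10 lies at 7.30 to 12.8 everywhere, and Aldh1a3 is low with a wide spread.

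Rbp4 in the alpha libraries was high relative to the somatostatin transcript. As a percent of the Sst level in scaled CPM, Rbp4 was 4.17, 3.11 and 3.004 in the delta libraries, 451, 468 and 95.4 in the alpha libraries, and 263, 112 and 71.4 in the beta libraries. Every alpha and beta library was above every delta library in this ratio. In an exact permutation test, two-sided, p was 0.1 for delta against alpha and for delta against beta, the smallest p that 3 libraries against 3 can give. Sst is the delta hormone that served to check the sort, so the order of this ratio follows from that denominator. The p-value is therefore no further support. The beta ratios rested on 8, 8 and 14 Sst counts. The 2 PP-cell markers Ppy and Pyy summed to 4358 to 6276 scaled CPM in delta, 2733 to 3820 in alpha and 62.4 to 90.4 in beta. Ppy alone was at 1476 to 2145 in delta, 1656 to 2409 in alpha and 30.7 to 60.5 in beta, and did not pass in delta against alpha (log2 fold change -0.24, adjusted p = 0.629), where Pyy was higher in delta (1.45, adjusted p = 4.01e-07). As a percent of Pyy, Rbp4 was 15.6 to 20.8 in delta, 6.27 to 7.62 in alpha and 4.59 to 9.01 in beta. The part of PP cells in the Rbp4 difference was not tested.

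Ttr was the transcript of the alpha-cell enriched subset. Ttr (ENSMUSG00000061808, chromosome 18, 20665280 to 20674321, plus strand) had 194, 80.9 and 189.8 scaled CPM in the delta libraries, 3485, 3404 and 2476 in the alpha libraries, and 73.1, 105 and 74.3 in the beta libraries. All alpha libraries were far above the rest, while delta replicate 2 fell within the beta range. Ttr was lower in delta than in alpha (log2 fold change -4.33, SE 0.41, 95% interval -5.31 to -3.35, adjusted p = 0.000344). It was 37.1-fold higher in alpha than in beta (log2 fold change 5.21, SE 0.43, 95% interval 4.19 to 6.24, adjusted p = 0.00014). Between delta and beta it did not pass (log2 fold change 0.88, SE 0.37, adjusted p = 0.126). That last difference passed without delta replicate 2 (log2 fold change 1.19, adjusted p = 0.000804), and with DESeq2 on all libraries (0.89, adjusted p = 0.0323). The order of levels was alpha, delta, beta, with delta and beta not separated beyond their spread.

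Per length, Ttr was high in every subset. It averaged 70.2 ± 29.9 TPM in delta, 1670 ± 3.08 in alpha and 43.3 ± 6.64 in beta (SD, n = 3 each). These levels ranked 374th, 69th and 785th among tested genes. Even the lowest, in beta, was above 95.1% of tested genes.

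In the delta libraries Ttr was lowest where glucagon was lowest. Gcg stood at 6003, 1930 and 5208 scaled CPM in delta replicates 1, 2 and 3, and the library with the least Gcg also had the least Ttr. As a percent of Gcg in scaled CPM, Ttr was 3.23, 4.19 and 3.64 in the delta libraries, 3.61, 3.64 and 3.17 in the alpha libraries, and 13.3, 35.1 and 22.6 in the beta libraries. The delta and alpha ratios overlapped (exact two-sided permutation p = 0.4), and every beta ratio was above them (exact p = 0.1 for delta against beta and for alpha against beta). Gcg is the alpha hormone and was lowest in beta, so the higher beta ratio follows from that denominator and is no further support. The part of alpha cells in the delta level of Ttr was not tested. Rbp4 as a percent of Gcg was 10.0, 33.4 and 9.54 in the delta libraries, against 0.0985, 0.0945 and 0.0896 in the alpha libraries. The part of alpha cells in the Rbp4 levels was not tested.

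Both genes encode proteins of the same plasma complex, and their balance was opposite in the 2 subsets that expressed them most. The ratio of Rbp4 to Ttr in TPM was 4.13, 10.7 and 3.48 in the delta libraries, 0.0367, 0.0356 and 0.0373 in the alpha libraries, and 0.0448, 0.0209 and 0.0241 in the beta libraries. Rbp4 exceeded Ttr in each delta library and was far below it in each alpha and beta library. The exact two-sided permutation p was 0.1 for delta against alpha and for delta against beta, and 0.4 for alpha against beta, whose ratios overlapped. A p of 0.1 is the smallest that 3 libraries against 3 can give. Rbp4 was higher and Ttr lower in every delta library than in any alpha library. The separation of that ratio follows from those levels, and its p-value is no further support. A ratio within a library does not depend on how libraries are scaled to each other.

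**Figure D2:**
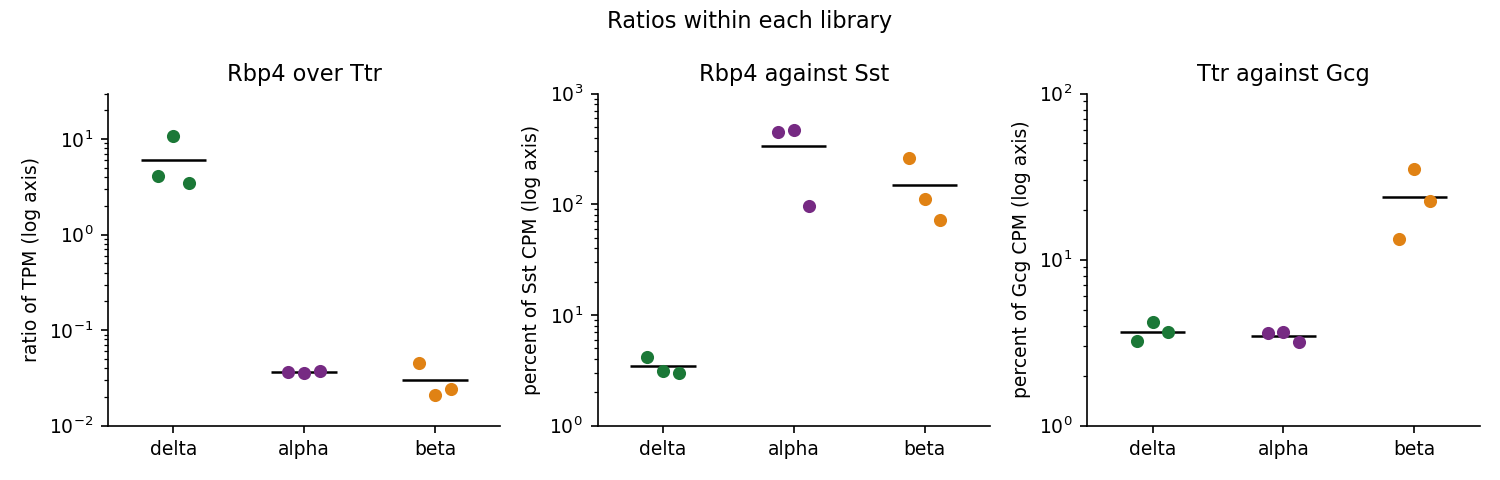
Ratios of 2 transcripts within each library (log axes), with 3 points per subset and a bar at the mean: Rbp4 over Ttr in TPM, Rbp4 as a percent of Sst and Ttr as a percent of Gcg in scaled CPM. Rbp4 over Ttr is 3.48 to 10.7 in delta and under 0.05 in alpha and beta, and Ttr over Gcg overlaps in delta and alpha at 3.17% to 4.19%.

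The retinol receptor and the retinoic acid binding proteins were at or near 0. Stra6 (ENSMUSG00000032327, chromosome 9, 58063788 to 58153996) had 0 counts in all 9 libraries. Crabp1 (ENSMUSG00000032291, chromosome 9, 54764748 to 54773110) also had 0 counts in all 9. For either gene, 0 of 65815463 counts allows a level of up to 0.0456 CPM, taking 3 counts as the limit, or 0.157 in delta, 0.128 in alpha and 0.129 in beta. This limit covers counting error only. Crabp2 (ENSMUSG00000004885, chromosome 3, 87948666 to 87953376) had a single count, in alpha replicate 2. None of these genes was tested.

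Among the retinal dehydrogenases, Aldh1a3 gave most of the few reads, with 119 counts over the 9 libraries, against 16 for Aldh1a1 and 3 for Aldh1a2. Aldh1a3 (ENSMUSG00000015134, chromosome 7, 66390890 to 66427517, minus strand) had 33, 37 and 7 counts in the delta libraries, 4, 24 and 4 in the alpha libraries, and 4, 5 and 1 in the beta libraries. In scaled CPM this was 4.51, 5.59 and 0.899 in delta, 0.456, 3.02 and 0.564 in alpha, and 0.514, 0.857 and 0.165 in beta. On this scale delta replicate 3 lay just above the highest beta library, so delta and beta did not overlap, while alpha overlapped both. In TPM delta and beta did overlap, with delta replicate 3 at 0.31 and beta replicate 3 at 0.36. Aldh1a3 was 6.96-fold higher in delta than in beta (log2 fold change 2.80, SE 0.90, 95% interval 0.90 to 4.70, adjusted p = 0.025). It passed the filter on low counts through delta replicates 1 and 2 and alpha replicate 2, where its counts were highest. The p-value is not independent of that filter. With only delta and beta compared, Aldh1a3 did not pass the filter. The call was lost without delta replicate 2 (log2 fold change 2.36, adjusted p = 0.0854), without beta replicate 1 (2.80, adjusted p = 0.0856) and without beta replicate 3 (2.40, adjusted p = 0.108). It did not pass in delta against alpha (log2 fold change 1.43, adjusted p = 0.223, SE 0.80) or in alpha against beta (1.37, adjusted p = 0.324, SE 0.93), and without alpha replicate 2 the difference between alpha and beta was 0.00.

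Alpha replicate 2 held 24 of the alpha counts of Aldh1a3 and also stood apart in mesenchymal markers. The 10 mesenchymal and stellate marker genes summed to 3.41 to 9.12 scaled CPM in delta, 13.2, 52.0 and 16.9 in the alpha libraries, and 1.28 to 1.54 in beta, with none of the 10 at 0 throughout. The same library held all 3 counts of Aldh1a2 and the count of Crabp2. The part of mesenchymal cells in these reads was not tested. In delta, the library with the highest acinar sum, replicate 3, had the lowest Aldh1a3.

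Aldh1a1 and Aldh1a2 were barely detected. Aldh1a1 (ENSMUSG00000053279, chromosome 19, 20492715 to 20643465), which encodes the main retinal dehydrogenase of many adult tissues, had 0, 5 and 2 counts in the delta libraries, 0 in each alpha library, and 4, 4 and 1 in the beta libraries. Aldh1a2 (ENSMUSG00000013584, chromosome 9, 71215789 to 71296243), the main retinoic acid synthesising enzyme of the embryo, had 3 counts, all in alpha replicate 2. Neither was tested. Of the summed TPM of Aldh1a1, Aldh1a2 and Aldh1a3, Aldh1a3 took 89.5% in delta, 89.4% in alpha and 62.5% in beta. These shares rest on few counts, and the effective length of Aldh1a3 ran from 288 to 3242 bases between libraries, so its TPM is uncertain.

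Rdh10, which encodes a retinol dehydrogenase, passed the test in no comparison. Rdh10 (ENSMUSG00000025921, chromosome 1, 16105774 to 16133734, plus strand) had 9.56, 8.92 and 9.38 scaled CPM in the delta libraries, 9.11, 7.30 and 11.4 in the alpha libraries, and 12.8, 9.08 and 12.2 in the beta libraries. All 3 subsets overlapped. The log2 fold change was -0.30 in delta against beta (SE 0.26, 95% interval -0.83 to 0.24, adjusted p = 0.426) and 0.00 in delta against alpha (SE 0.25, 95% interval -0.53 to 0.54, adjusted p = 0.993). It was -0.30 in alpha against beta (SE 0.25, 95% interval -0.84 to 0.24, adjusted p = 0.453). The interval in delta against beta still allows a log2 fold change of -0.83.

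**Figure D3:**
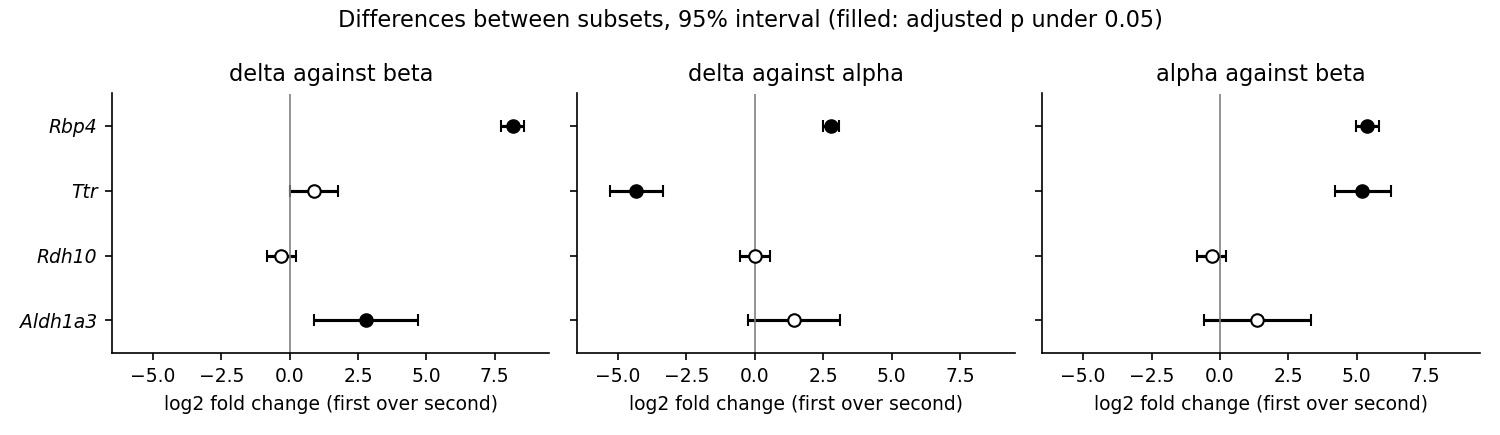
Log2 fold changes of the 4 tested genes (horizontal axis, first subset over second) with 95% intervals in delta against beta, delta against alpha and alpha against beta; filled points have an adjusted p under 0.05. Rbp4 is above 0 in all 3 panels, Ttr is at -4.33 in delta against alpha and 5.21 in alpha against beta, and the Rdh10 intervals include 0 throughout.

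Among the other retinol dehydrogenase and retinal reductase genes, Adh1 and Dhrs4 passed the test. Of 17 other retinol dehydrogenase and retinal reductase genes, 9 were tested. None was higher in delta than in beta or alpha, beside 15.3% and 13.3% of all tested genes, 2 were lower in delta than in beta, beside 15.4%, and 1 was lower in delta than in alpha, beside 11.0%. Adh1, which encodes an alcohol dehydrogenase that oxidises retinol when it is abundant, had 2.32, 3.18 and 2.70 scaled CPM in the delta libraries, 19.6, 18.3 and 17.4 in the alpha libraries, and 63.6, 81.2 and 68.3 in the beta libraries. The 3 subsets did not overlap, in the order beta, alpha, delta. Adh1 was lower in delta than in beta (log2 fold change -4.70, adjusted p = 1e-11, SE 0.20), and lower than in alpha (-2.75, adjusted p = 1.34e-08, SE 0.20). It was also lower in alpha than in beta (-1.95, SE 0.16, adjusted p = 4.93e-08). This order is the reverse of that of Rbp4.

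Dhrs4, a retinal reductase, was lower in delta than in beta (log2 fold change -2.02, SE 0.32, adjusted p = 9.18e-05) and in alpha than in beta (-1.83, SE 0.31, adjusted p = 0.000236). It did not pass in delta against alpha (-0.19, adjusted p = 0.741). The summed TPM of Rdh10 and the 17 retinol dehydrogenase and retinal reductase genes averaged 30.4 in delta, 44.6 in alpha and 74.0 in beta, mixing enzymes of opposite directions. Adh1 made up 3.61% of that sum in delta, 18.6% in alpha and 42.4% in beta, and Rdh10 made up 5.16%, 4.39% and 2.70%. Per length, Adh5, which encodes a formaldehyde-oxidising dehydrogenase, led in delta and alpha, and Adh1 led in beta. Rdh10 ranked 8th of these 18 genes in delta, 9th in alpha and 8th in beta.

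**Figure D4:**
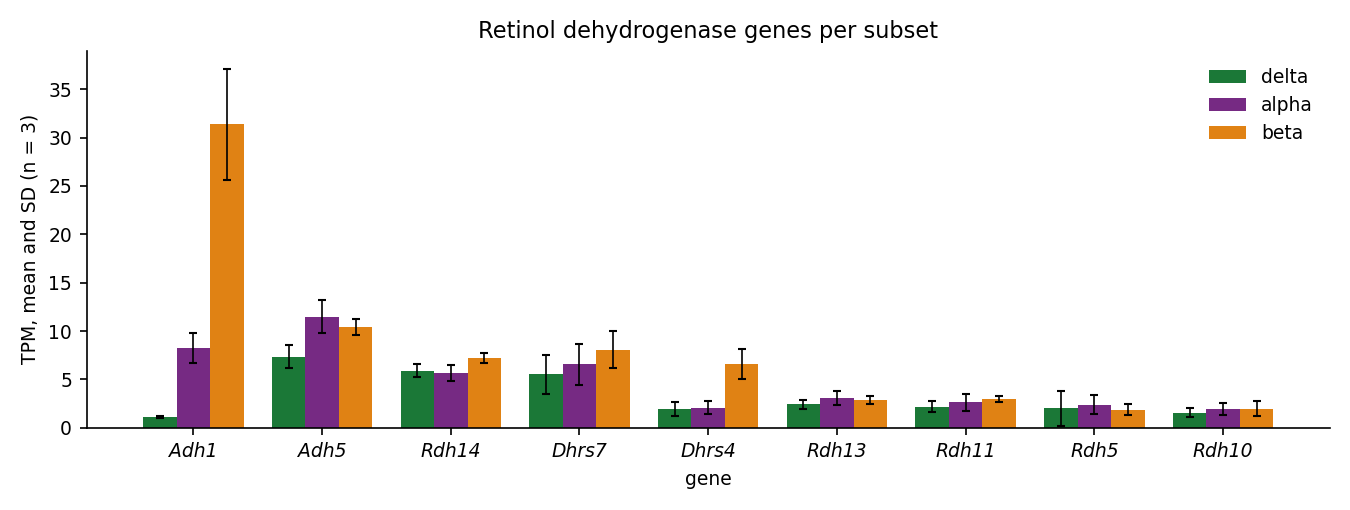
Mean TPM of Rdh10 and other retinol dehydrogenase and retinal reductase genes in delta, alpha and beta, with bars for the mean and error bars for the SD of 3 libraries. Adh1 is at 1.10 TPM in delta, 8.29 in alpha and 31.4 in beta, where it is the tallest bar, while Rdh10 is at 1.57, 1.96 and 1.99 TPM in delta, alpha and beta.

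Over the 59 other retinoid pathway genes listed by role, 30 were tested. In delta against beta 10 were higher, beside 15.3% of all tested genes, and 4 lower, beside 15.4%. A further 16 did not pass, and the median log2 fold change was 0.33. In delta against alpha 9 were higher, beside 13.3%, and 3 lower, beside 11.0%. There 18 did not pass, with a median of 0.28. In alpha against beta 5 were higher, beside 11.9%, and 4 lower, beside 14.8%. There 21 did not pass, with a median of 0.13. In alpha against beta the shares called were near those of all tested genes. With limma on log2(TPM + 1), 8, 5 and 5 of the 30 were called in these comparisons. The calls lost on that scale were those of Lipe, Scarb1, Rarg, Rxra, Nrip1 and Meis1 in delta against beta, those of Scarb1, Fabp5, Rara, Rarg, Tgm2, Nrip1 and Meis2 in delta against alpha, and those of Bco1, Rara, Nrip1 and Meis2 in alpha against beta. With effective-length offsets the calls of Lipe (log2 fold change 0.70, adjusted p = 0.281) and Rxra (-0.44, 0.349) in delta against beta were lost. So were those of Scarb1 (0.88, 0.0632), Fabp5 (1.31, 0.063) and Rarg (0.86, 0.0806) in delta against alpha, and of Meis2 (0.24, 0.267) in alpha against beta. Among the 59, 10 had 0 counts throughout, including Lrat, which encodes the main retinol esterifying enzyme.

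Bco1, which encodes the enzyme that cleaves beta-carotene into retinal, was highest in delta. It had 16.8, 20.6 and 23.9 scaled CPM in the delta libraries, 3.19, 4.79 and 3.95 in the alpha libraries, and 6.42, 10.6 and 6.11 in the beta libraries. The delta libraries were all above the others, and the alpha libraries were all below the beta libraries. The log2 fold change was 1.41 in delta against beta (SE 0.27, adjusted p = 0.000661) and 2.36 in delta against alpha (SE 0.29, adjusted p = 7.21e-06). In alpha against beta it was -0.95 (SE 0.30, adjusted p = 0.0234), a call lost without alpha replicate 1 (adjusted p = 0.103), alpha replicate 3 (0.0621) or beta replicate 2 (0.179). The 250 bases before its start on the plus strand of chromosome 8, chr8:117095615-117095864 from RefSeq on GRCm38.p6, are shown because they hold a direct repeat of AGGTCA, a motif that nuclear receptors bind. Capitals mark the same 4 motifs.
Bco1 start: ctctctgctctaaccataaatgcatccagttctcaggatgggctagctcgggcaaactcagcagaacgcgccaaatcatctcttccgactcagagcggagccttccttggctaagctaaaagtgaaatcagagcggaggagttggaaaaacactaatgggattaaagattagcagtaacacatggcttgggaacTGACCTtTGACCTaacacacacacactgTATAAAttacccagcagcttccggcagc
The repeat, with 1 base between its copies and read on the other strand, was chosen for counting after the sequence had been seen, and 13 of 32851 windows, or 0.0396%, held it. It is made of both AGGTCA matches. TATAAA began 28 bases before the start site. A match is a description of the letters and not a bound site.

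Genes of uptake and storage moved in both directions, with 5 of 10 tested. Lpl, which encodes lipoprotein lipase, had 8.01 to 25.3 scaled CPM in delta, 435 to 576 in alpha and 144 to 194 in beta, with no overlap. It was lower in delta than in beta (log2 fold change -3.10, adjusted p = 0.00101) and than in alpha (-4.70, adjusted p = 0.000208). It was higher in alpha than in beta (1.60, adjusted p = 0.0155), a call lost without beta replicate 2 (adjusted p = 0.0699) or beta replicate 3 (0.0669). Scarb1, a scavenger receptor that takes up carotenoids, was at 14.4 to 21.7 scaled CPM in delta, 8.89 to 11.4 in alpha and 7.20 to 9.24 in beta. It was higher in delta than in beta (log2 fold change 1.13, adjusted p = 0.00141) and than in alpha (0.87, adjusted p = 0.0115), the second call being lost without alpha replicate 2 (adjusted p = 0.0516) or 3 (0.0517). Lipe, which encodes hormone-sensitive lipase, was higher in delta than in beta (1.05, adjusted p = 0.0323). That call was lost without delta replicate 3 (adjusted p = 0.098) or any beta library (0.068 to 0.129).

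Of the receptor genes, Rara, Rarg, Rxra and Rxrb had counts in every library, and all of these but Rxrb differed between subsets. Rxrg had 0 counts in all 9 libraries. Rara had 9.38 to 16.1 scaled CPM in delta, 3.95 to 5.41 in alpha and 9.08 to 12.5 in beta. It was higher in delta than in alpha (log2 fold change 1.47, adjusted p = 0.000913) and lower in alpha than in beta (-1.20, adjusted p = 0.00434), and did not pass in delta against beta (0.27, adjusted p = 0.499). Rxra had 6.97 to 15.4 scaled CPM in delta, 35.5 to 48.0 in alpha and 14.6 to 21.3 in beta, so that alpha was above the rest. It was lower in delta than in alpha (-1.86, adjusted p = 2.36e-05) and higher in alpha than in beta (1.09, adjusted p = 0.00235). Its lower level in delta than in beta (-0.77, adjusted p = 0.0284) was lost without delta replicate 1 (0.0864), delta replicate 2 (0.0741), beta replicate 2 (0.104) or beta replicate 3 (0.104).

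Rarg was higher in delta than in beta (log2 fold change 1.29, adjusted p = 0.00121) and than in alpha (0.82, adjusted p = 0.0277). The difference from alpha was lost without delta replicate 2 (adjusted p = 0.119) or any alpha library (0.0615 to 0.102). Rxrb passed in no comparison, and Rarb reached at most 0.456 scaled CPM in any library. Fabp5, a fatty acid binding protein that can carry retinoic acid to the nucleus, was higher in delta than in beta (2.35, adjusted p = 0.0012) and than in alpha (1.43, adjusted p = 0.0286). The difference from alpha was lost without delta replicate 2 (adjusted p = 0.145) or any alpha library (0.0664 to 0.1).

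Of the 5 genes of retinoic acid breakdown, the Cyp26 genes, Cyp1b1 and Cyp2s1, none passed the filter on low counts. Of 15 genes known to respond to retinoic acid in other settings, 8 were tested, and 5 were higher in delta than in beta, 4 higher in delta than in alpha and 3 higher in alpha than in beta, beside 15.3%, 13.3% and 11.9% of all tested genes. None was lower, beside 15.4%, 11.0% and 14.8% of all tested genes. Several of them are islet transcription factors in their own right. Isl1, a transcription factor of endocrine cells, had 345, 351 and 316 scaled CPM in the delta libraries, 159, 170.5 and 174 in the alpha libraries, and 144, 144 and 141 in the beta libraries. It was higher in delta than in beta (log2 fold change 1.24, adjusted p = 7.08e-09) and than in alpha (1.01, adjusted p = 1.2e-07). Meis2, a homeobox gene, differed likewise (1.29, adjusted p = 2.48e-08, and 0.98, adjusted p = 8.26e-07). Its higher level in alpha than in beta (0.30, adjusted p = 0.0304) was lost without alpha replicate 3 (adjusted p = 0.184), beta replicate 1 (0.0978) or beta replicate 2 (0.112).

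Nrip1, a nuclear receptor corepressor, was higher in delta than in beta (log2 fold change 0.98, adjusted p = 1.43e-06) and alpha (0.42, adjusted p = 0.00658), and in alpha than in beta (0.56, adjusted p = 0.000636). Its difference from alpha was lost without alpha replicate 2 (adjusted p = 0.0576). Meis1 was higher in delta than in beta (0.54, adjusted p = 0.00824). Tgm2, a transglutaminase, had 3, 20 and 40 counts in the delta libraries, 2, 0 and 0 in the alpha libraries, and 13, 6 and 2 in the beta libraries. It was called higher in delta than in alpha (adjusted p = 0.00515), with the alpha libraries near 0 and a wide spread in delta. The call was lost without beta replicate 2 and delta replicate 3 together (adjusted p = 0.0541) and on log2(TPM + 0.1) (0.0925).

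**Figure D5:**
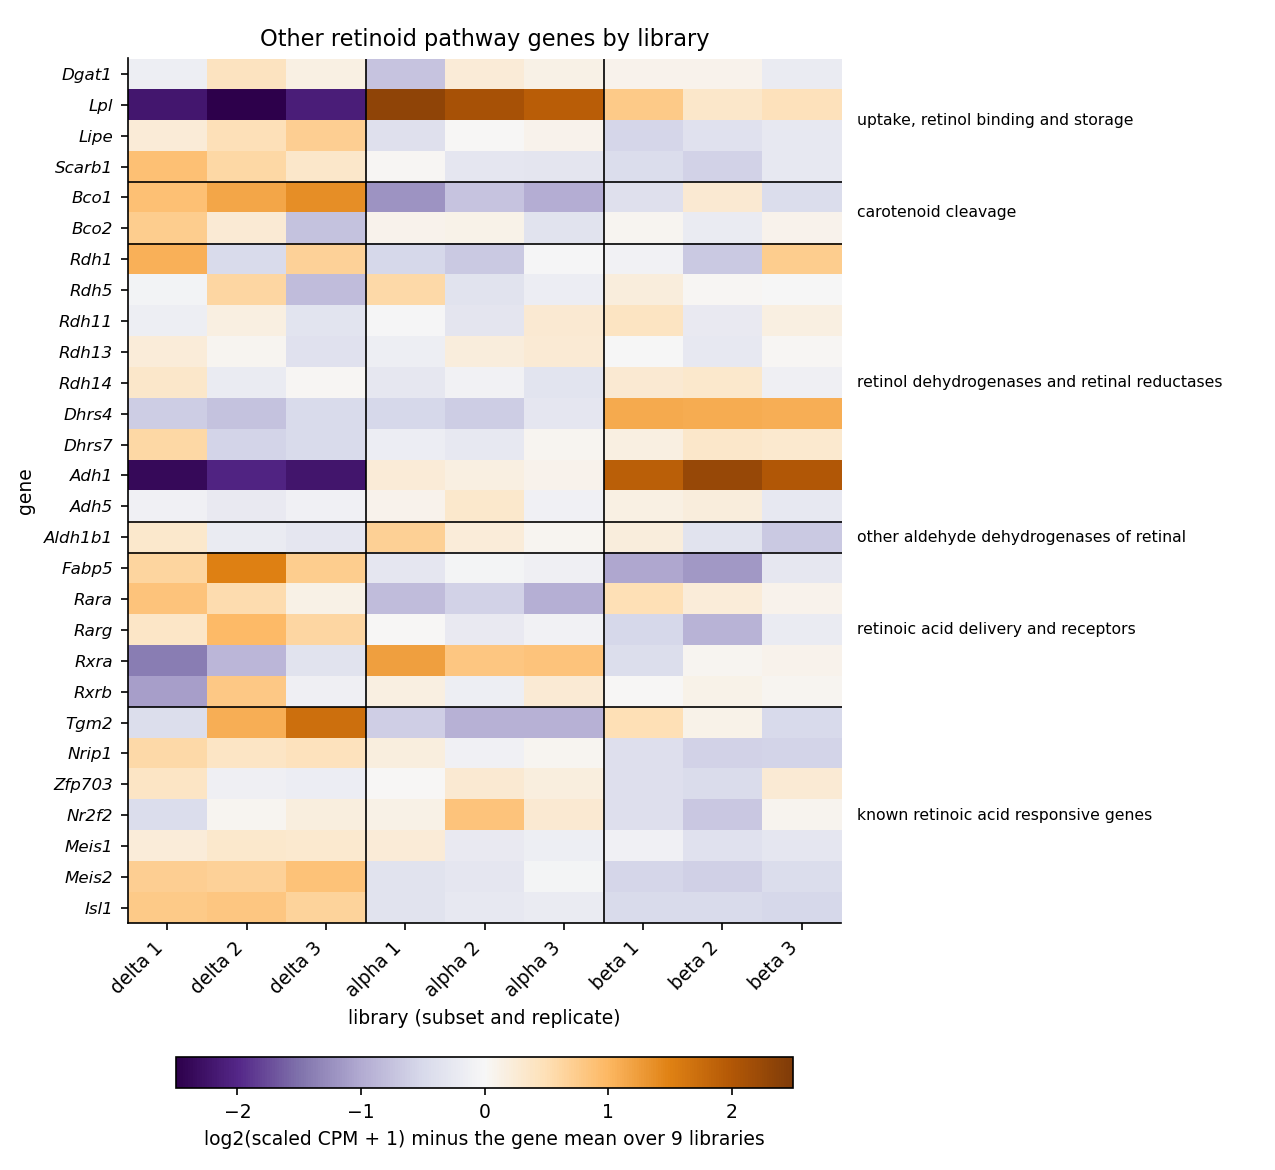
Tested pathway genes other than the 9, for the genes reported (rows, by role) in each library (columns), coloured by log2(scaled CPM + 1) minus the gene's mean over 9 libraries, with brown above and purple below the mean. Lpl and Adh1 show the widest range, with Lpl high in alpha, Adh1 high in beta and both low in delta, and Bco1 is high in delta.

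Ffar4, the nearest protein-coding gene to Rbp4, had the same order of mean levels. It lies 2366 bases beyond the 3' end of Rbp4 on the opposite strand and encodes a receptor for long-chain fatty acids. Ffar4 had 29.0, 30.7 and 32.4 scaled CPM in the delta libraries, 10.3, 7.93 and 10.9 in the alpha libraries, and 0.514, 0.343 and 0.330 in the beta libraries. It was higher in delta than in beta (log2 fold change 6.18, SE 0.32, adjusted p = 1.31e-10) and alpha (1.66, SE 0.21, adjusted p = 1.11e-05), and in alpha than in beta (4.52, SE 0.34, adjusted p = 1.65e-08). The library preparation kept strand, but whether the counting used it is not stated, so reads that run past either 3' end cannot be told apart. The ratio of Rbp4 to Ffar4 in TPM was not constant, at 24.9 to 34.4 in delta, 10.4 to 18.6 in alpha and 6.61 to 7.75 in beta. Pde6c, 7500 bases from Rbp4 on the other side, reached 0.819 to 4.54 scaled CPM in delta, 0.252 to 1.14 in alpha and 0 in beta and was not tested.

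The neighbours of the other tested genes had other patterns. Dsg2, on one side of Ttr, had 70.0 to 81.3 scaled CPM in delta, 51.9 to 62.0 in alpha and 60.1 to 69.2 in beta, and B4galt6, on the other side, had 182 to 197 in delta, 142 to 175 in alpha and 115 to 133 in beta. Lrrk1, 2540 bases from Aldh1a3, was lower in delta than in alpha (log2 fold change -2.28, adjusted p = 0.00613) and higher in alpha than in beta (3.04, adjusted p = 0.00098). Rpl7, 1112 bases from Rdh10, was higher in alpha than in beta (0.54, adjusted p = 0.00657).

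The genes whose levels were most like those of each abundant member were found by Pearson correlation of log2 scaled CPM over the 9 libraries, among 9393 protein-coding genes at 10 scaled CPM or more in a subset. For Rbp4 these were Olfm3 (r = 0.998), Ffar4 (0.996) and Lats2 (0.995). Olfm3 had 98.3 to 113 scaled CPM in delta, 19.4 to 22.8 in alpha and 0 to 0.642 in beta. For Ttr they were Hcar1 (0.992), Sstr2 (0.991) and Arhgap6 (0.991), and Hcar1 had 0 to 0.956 scaled CPM in delta, 14.5 to 20.4 in alpha and 0.330 to 0.514 in beta. For Rdh10 they were Idh1 (0.911), Greb1l (0.906) and Snx10 (0.903). The points share 3 subset levels and their library depths, so these values describe a likeness only. On log2(TPM + 1), 0 of the 3 genes were the same for Rbp4, 1 of 3 for Ttr and 0 of 3 for Rdh10.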

How the data were processed

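Per the labels' protocols, RNA from sorted islet cells was made into strand-specific libraries with random primers and a ribosomal RNA depletion, and sequenced in paired ends. The submitters' processing notes name the build GRCm38.p6, DESeq2 1.22.1, R 3.5.1, STAR 2.5.2b and RSEM, with a version of RSEM not given in the sources used here. The authors deposited expected counts, TPM and effective lengths per gene and library, per the file headers. A deposited normalised table with 9 columns of sample values was not used. All 55536 gene identifiers matched GENCODE M21.

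Expected counts were rounded to whole numbers, filtered with filterByExpr to 15896 genes, scaled with TMM and fitted with edgeR 4.0.16 under R 4.3.3. The quasi-likelihood fit was robust, used all 9 libraries and had a coefficient for each subset. Tests were 2-sided with Benjamini-Hochberg adjustment at 0.05, and the common biological coefficient of variation was 0.212. Library totals of 5663141 to 9529920 counts limit what can be said of genes with few counts. The intervals and SEs come from the fit and include the spread between libraries, while the limit of 3 counts covers counting error only. TPM served to compare genes, and scaled CPM to compare libraries.

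The genes, the lists of other pathway genes and the markers were chosen with earlier results of these data known. All 9 genes, pathway genes past the test, the nearest protein-coding genes and the 3 most alike genes per abundant member were named by rule, and markers were summed per list. Other list members, such as Rarb, Rxrb, Lrat, Adh5 and Pyy, were named after their values were seen. Some list members are counted but not reported here by name. Promoter windows on chromosome 18 were not used. Alternatives covered scaling factors, filters, limma 3.58.1 on TPM, DESeq2 1.42.0, effective-length offsets, a replicate block, subsets alone and left-out libraries.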

Additional observations from a re-analysis of the deposited data

How the results depend on the processing

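Rbp4 kept its direction and call in all 3 comparisons under all 22 alternatives, at 7.30 to 8.48 in delta against beta, 2.51 to 2.88 in delta against alpha and 4.75 to 5.71 in alpha against beta (log2). Ttr did so in delta against alpha (-4.67 to -4.03) and alpha against beta (4.99 to 5.42), and Adh1 and Ffar4 in all 3. Aldh1a3 in delta against beta also missed the threshold on log2(TPM + 0.1) (1.61, adjusted p = 0.0657), on rescaled TPM (0.62, 0.0529) and against a log2 fold change of 1 (0.136).

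Counts of called genes are given for log2(TPM + 1), log2(TPM + 0.1), TPM rescaled without ribosomal and 7S RNA, and a log2 fold change of 1 as the tested bound, in that order. Pathway genes numbered 8, 8, 7 and 6 in delta against beta, 5, 5, 6 and 5 in delta against alpha, and 5, 4, 5 and 2 in alpha against beta, beside 14, 12 and 9 as reported. Without 1 library they ranged from 12 to 14, 8 to 12 and 6 to 11. All genes numbered 2446, 2480, 3446 and 1468 in delta against beta, 1807, 1782, 1802 and 1039 in delta against alpha, and 1765, 1819, 2278 and 1211 in alpha against beta, beside 4869, 3868 and 4231. The cause was not tested. The split into higher and lower was 1062 and 2384 on rescaled TPM in delta against beta (2427 and 2442 as reported), 796 and 986 on log2(TPM + 0.1) in delta against alpha (2120 and 1748), and 724 and 1554 on rescaled TPM in alpha against beta (1886 and 2345). On log2(TPM + 0.1) the median of all genes shifted to -0.151 in delta against beta and -0.22 in delta against alpha, and to -0.245, -0.097 and -0.133 on rescaled TPM. Of the 9 genes, 1 was called in delta against beta on log2(TPM + 0.1), on rescaled TPM, with only the 2 subsets compared and against a log2 fold change of 1, and 1 to 2 without 1 library.

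Rdh10 had no call anywhere. In delta against alpha its log2 fold change of 0.00 became -0.02 with upper-quartile factors, -0.01 with no filter, -0.20 and -0.31 on log2(TPM + 1) and log2(TPM + 0.1), -0.16 on rescaled TPM, -0.11 with effective-length offsets, 0.00 with only the 2 subsets and without beta replicate 2 and delta replicate 3 together, and -0.15 to 0.17 without 1 library. In alpha against beta it became 0.00 and 0.02 on the TPM scales, and Aldh1a3 ranged from 0.00, without alpha replicate 2, to 1.89 without 1 library. With only 2 subsets compared, Aldh1a3 did not pass the filter on low counts against beta and gave no value.

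The labels do not say whether same-numbered libraries share mice or a day. Their deviations correlated at 0.00566 to 0.144, not all above 0.1, so the number was not used as a block in the reported values. With a replicate block, 2 of the 9 genes were called in each comparison, pathway genes numbered 14, 12 and 10, and all genes 5241, 4294 and 4625.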
